A study of Mus musculus with 31 samples.

Results

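Double positive (DP) thymocytes are the cells of the thymus that carry both CD4 and CD8 on their surface. The 8 DP libraries of the study, picked by their sample titles from 31 RNA-seq libraries, came from neonatal mice of 5 to 7 days (n = 4) and adult mice of 12 weeks (n = 4). All groups were C57BL/6, an inbred strain, with no other allele and no treatment recorded. DP cells were sorted by flow cytometry from the thymic cells retained on CD4 magnetic beads, and polyadenylated RNA was sequenced. The comparison addressed how the expression profile of thymocytes differs between the ages. The other libraries, 7 of double negative (DN) thymocytes, 8 of CD8 single positive (SP8) thymocytes and 8 of naive splenic CD8 T cells (CD8), entered the same fit and served to test whether an age difference in DP was larger or smaller than elsewhere. The study's design calls the libraries of a group biological replicates. Sex, litter and batch were not given in the labels, nor how many mice went into a library.

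A thymocyte becomes DP after the beta chain of its T cell receptor has paired with the pre-receptor alpha chain and signalled, a step that depends on Notch signals from the thymic stroma. It then divides, comes to rest and rearranges the alpha chain gene with the RAG recombinase. DP cells whose finished receptor binds peptide and MHC weakly receive a signal that induces CD69 and the Egr and Nr4a transcription factors, and they go on to become single positive cells. Most DP cells get no such signal and die in the thymus. The thymus of a newborn is seeded by cells of fetal origin, which are known for an RNA-binding protein programme built on Lin28b and for receptor genes with few added bases.

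The DP libraries held between 14653875 and 20324520 counts, so that 3 counts in 1 library, taken as the floor of detection, came to at most 0.191 CPM (counts scaled to a common library size) in adults and 0.179 CPM in neonates. Levels are given in CPM scaled by TMM, and they are not per length, so levels of different genes are not compared. Differences are log2 fold changes of neonates over adults from edgeR's quasi-likelihood test, with a standard error (SE) and a p-value adjusted by Benjamini-Hochberg over 16461 genes. A gene is called higher or lower at an adjusted p under 0.05. Adult replicate 2 stood apart from the other adult DP libraries, with a Pearson correlation of log2 CPM across genes of 0.979 to 0.981 to the others, against 0.987 to 0.992 for the other pairs within an age. The X-linked gene Xist and 4 Y-linked genes were summed together, and a sum over both cannot show the sex of a library. Adult replicate 1 had the lowest sum, 41.5 CPM, and the highest adult library had 480 CPM. The neonatal libraries lay between 368 and 397 CPM.

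In bulk libraries, fewer cells of a type and less RNA per cell cannot be told apart, which holds for all results here. Markers of other cell types were summed in each library. The 12 B cell markers gave 442 to 467 CPM in adults and 413 to 445 CPM in neonates with 0 called, and the erythroid markers gave at most 2.12 CPM with 0 of 6 called. Myeloid and dendritic markers summed to 87.6 to 97.5 CPM in adults and 66.9 to 81.5 CPM in neonates, with 1 of 15 called lower, and Clec9a and Siglech had no count in any DP library. Gamma-delta T and NK markers summed to 48.7 to 52.5 CPM in adults and 42.0 to 56.3 CPM in neonates, with Klrd1 and Ncr1 at 0, 1 of 12 called higher and 2 lower. Thymic stroma markers were between 145 and 182 CPM in adults and between 191 and 207 CPM in neonates, with 1 of 7 tested called higher. The part of these cells in the results below was not tested.

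The labelled cell type held at both ages. Cd4 had 1673, 1666, 1657 and 1718 CPM in the adult libraries and 1569, 1668, 1634 and 1619.8 CPM in the neonatal ones, and the difference of −0.05 (SE 0.14) was not called (adjusted p = 0.871). Cd8a lay between 3069 and 3537 CPM in adults and between 2618 and 2980.1 CPM in neonates (−0.21, SE 0.08, adjusted p = 0.0622), and 6 of the alternative fits called it lower. Rag1, which cuts the receptor genes, had 6565 ± 1107 CPM (SD, n = 4) in adults and 7609 ± 591 CPM in neonates (0.21, SE 0.24, adjusted p = 0.615). At the other stages Cd4 stayed at or under 12.0 CPM in every group mean.

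Of the 16461 genes tested, 2917 (17.7%) were called between neonatal and adult DP cells, 1478 (8.98%) higher and 1439 (8.74%) lower in neonates. The median log2 fold change over all tested genes was 0.0. Genes were filtered over the groups of all stages, so some tested genes had no count in any DP library. With the DP libraries alone, 13610 genes were tested and 2565 called, 1289 higher and 1276 lower. The shares of 8.98% and 8.74% are the background for the higher and lower calls of each list or gene family below. The lists were chosen with earlier results of these data known. A change of at least 2-fold was found for 568 of the higher and 274 of the lower genes, so large changes were more often rises. For 10.6% of tested genes every neonatal library was above every adult one, and for 8.77% below, and 2343 of the called genes were separated in this way. The plot of all tested genes shows that several of the largest rises came from genes low in adult DP cells, among them Spib and Kit, while large falls included abundant genes such as Als2cl.

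**Figure D1:**
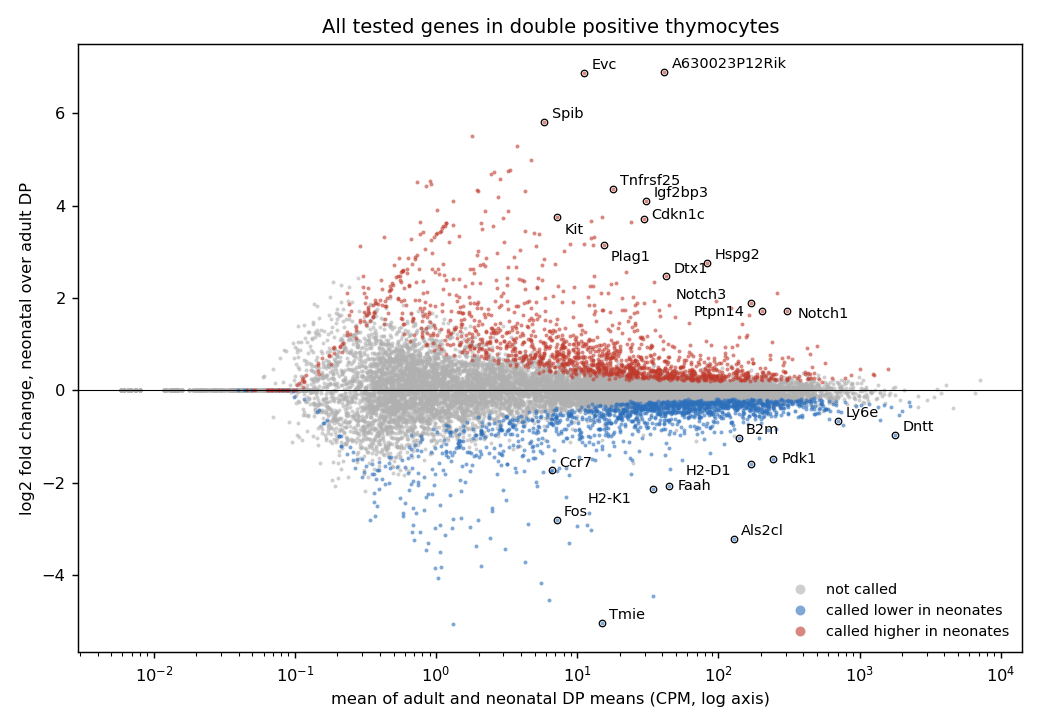
Log2 fold change of neonatal over adult DP for each of 16461 tested genes (vertical axis) against the mean of the adult and neonatal DP means in CPM (horizontal log axis). Red points are called higher and blue points lower in neonates. Genes at or under 3 counts in all libraries of 1 age are drawn at their fold against that floor, and genes at the floor at both ages at 0. Of the labelled genes, A630023P12Rik (6.90), Evc, Spib and Tnfrsf25 lie highest, and Tmie and Als2cl lowest.

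The receptors Notch1 and Notch3 and some of their targets rose in neonatal DP cells. Of 28 listed genes of the Notch pathway 25 were tested, 9 were called higher and 3 lower, and their median was 0.30. Among the 3 lower was the ligand gene Jag2, at 16.9 CPM in adults and 11.6 CPM in neonates (−0.54, SE 0.17, adjusted p = 0.0214). Without adult replicate 2 the higher calls fell from 9 to 5, and the lower calls ranged from 0 to 4 over the fits that left out 1 DP library. Notch1, the receptor that drives T cell commitment (2:26457903-26516663, minus strand, GRCm38), had 153, 124, 149 and 141 CPM in the adult libraries and 438, 514, 466 and 449 CPM in the neonatal ones. The ages were widely separated, at 3.29-fold (1.72, SE 0.11, adjusted p = 3.02e-14). Notch3, a receptor of the pre-receptor step, had 77.4, 74.8, 70.7 and 65.6 CPM in adults and 279, 311, 240.3 and 243 CPM in neonates (1.90, SE 0.13, adjusted p = 1.87e-13). Again the lowest neonatal library lay far above the highest adult one.

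Of the Notch target genes in the list some rose and others were not called, among them Hes1 (0.54, adjusted p = 0.711), Hes5 (−0.58, adjusted p = 0.649), Hey1 (0.30, adjusted p = 0.839) and Dtx4 (0.84, adjusted p = 0.362). Dtx1, which encodes the ubiquitin ligase Deltex1, had 8.83, 17.2, 13.2 and 13.0 CPM in adults and 70.2, 94.3, 68.4 and 55.0 CPM in neonates, a 5.54-fold rise (2.47, SE 0.19, adjusted p = 4.04e-11). Il2ra, the CD25 chain of the interleukin 2 receptor, went from 7.18 ± 2.85 CPM to 19.9 ± 3.97 CPM (1.49, SE 0.22, adjusted p = 1.19e-05). Heyl, a Notch-induced repressor, was low at both ages, at 0.280 ± 0.190 and 1.14 ± 0.463 CPM (1.96, SE 0.50, adjusted p = 0.00456). Smaller calls were made for Notch2 (0.40), for Rbpj (0.28), the DNA-binding partner of Notch, for Adam10 (0.22), a protease that cuts Notch, and for the feedback gene Nrarp (0.87). None of these 4 was called without adult replicate 2, where their values were 0.30, 0.20, 0.17 and 0.76.

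Of 24 listed genes of early thymocytes, 22 were tested. Of these, 3 (13.6%) were called higher and 2 (9.09%) lower, shares near those of 8.98% and 8.74% over all genes, and the median was −0.03 (0.0 with genes at the floor placed at their bound). Kit, the stem cell factor receptor, had 1.49, 0.638, 1.02 and 0.847 CPM in adults and 14.2, 14.4, 12.8 and 12.6 CPM in neonates, 13.4-fold higher (3.74, SE 0.16, adjusted p = 2.14e-19). Spib, an Ets family transcription factor, had 0.110, 0.319, 0.190 and 0.188 CPM in adults and 12.2, 11.9, 12.2 and 9.77 CPM in neonates, 56.1-fold higher (5.81, SE 0.34, adjusted p = 9.58e-16). The adult libraries were near the floor for Spib but not for Kit, and for both genes all neonatal libraries were far above them. Il2ra made up the third rise. Cd34, Hhex, Hoxa9 and Tal1 had no count in any DP library, and Cd44, which DN1 cells carry, did not pass (−0.37, SE 0.18, adjusted p = 0.153).

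Of 10 DN markers, which share Il2ra, Kit, Notch3 and Dtx1 with the lists above, 6 were called higher and 1 lower. Their sum was 5221 to 7778 CPM in adults and 7336 to 8763 CPM in neonates, most of it Rag1. Ptcra, the pre-receptor alpha chain, rose by only 1.34-fold (29.9 ± 2.28 against 40.1 ± 3.71 CPM, 0.42, SE 0.11, adjusted p = 0.00779). Il7r, the interleukin 7 receptor that DN and single positive cells both carry, fell. The part of residual DN cells in these rises was not tested.

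Of the 26 genes of DP identity, 3 were called higher and 7 lower, and the median was −0.03. The transcription factors Ikzf3 (0.68, SE 0.14, adjusted p = 5.51e-04) and Runx1 (0.41, SE 0.09, adjusted p = 5.21e-04) rose. Cd8b1, the beta chain of CD8, fell from 2265 ± 203 to 1564 ± 112 CPM (−0.53, SE 0.10, adjusted p = 1.44e-04), and Lck, the kinase bound to CD4 and CD8, fell by 0.26 (SE 0.07, adjusted p = 0.00707). Antigen receptor assembly gave 3 higher and 3 lower of 21 (14.3% each, against 8.98% and 8.74% over all genes). Dntt, the enzyme that adds bases at receptor joints, had 2478, 2453, 2166 and 2383 CPM in adults and 1255, 1104, 1113 and 1373 CPM in neonates (−0.97, SE 0.14, adjusted p = 2.05e-06). Even so, the neonatal libraries kept about 1211 CPM of Dntt. Cd247, the zeta chain of the receptor, was lower by 0.32 (SE 0.07, adjusted p = 0.00125).

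Genes that follow a T cell receptor signal or positive selection were mostly lower in neonates. Of 38 tested, 27 were called lower and 1 higher, against 8.74% lower over all genes, and their median was −0.52. Over the fits that left out 1 DP library the lower calls ranged from 22 to 28. Ccr7, the chemokine receptor that leads selected cells to the medulla, had 9.82, 12.2, 9.52 and 8.99 CPM in adults and 3.46, 2.01, 3.22 and 3.57 CPM in neonates, 3.32-fold lower (−1.73, SE 0.17, adjusted p = 7.96e-10). Il7r had 2.59, 6.06, 5.01 and 2.63 CPM in adults and 1.31, 1.42, 1.27 and 1.52 CPM in neonates (−1.52, SE 0.22, adjusted p = 3.34e-06). The adult libraries of Il7r spread more than the neonatal ones, but the ages did not overlap.

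Early response genes of the receptor signal moved the same way. Cd69, the surface marker of freshly signalled cells, had 43.1, 58.3, 51.4 and 54.5 CPM in adults and 32.4, 24.9, 34.2 and 33.4 CPM in neonates (−0.73, SE 0.13, adjusted p = 8.65e-05). Nr4a1, a nuclear receptor whose level follows signal strength, fell from 89.4 ± 16.7 to 51.6 ± 5.42 CPM (−0.79, SE 0.12, adjusted p = 2.44e-06). Egr2 (−0.91, SE 0.16), Egr3 (−0.52, SE 0.13) and Nr4a3 (−1.05, SE 0.17) were called lower as well. Other members that fell were the inhibitory receptor Pdcd1 (9.77 ± 0.792 against 3.98 ± 0.290 CPM, −1.29, SE 0.15), the zinc finger factor Ikzf2 (−0.91, SE 0.17), Gadd45b (−1.35, SE 0.27) and the death gene Bbc3 (−0.66, SE 0.13). Id3 (−0.60, SE 0.10) and the survival gene Bcl2 (−0.44, SE 0.10) were lower too. The death gene Bcl2l11 (−0.19, adjusted p = 0.138) and Nr4a2 (−0.64, adjusted p = 0.215) were not called. Runx3, the factor of the CD8 lineage, was the only listed gene called higher, at 14.7 ± 2.10 and 20.04 ± 1.18 CPM (0.45, SE 0.11, adjusted p = 0.00396).

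Markers of mature single positive cells fell with this list, which shares Ccr7, Il7r and Zbtb7b with it. Of 12, 6 were called lower and 0 higher, and their sum ran from 242 to 273 CPM in adults and from 154 to 188 CPM in neonates. The part of mature cells in the sort was not tested. Trac, the constant gene of the receptor alpha chain, was also lower, with 412, 568, 426 and 441 CPM in adults and 327, 320.1, 302 and 325 CPM in neonates (−0.53, SE 0.10, adjusted p = 7.70e-05). Adult replicate 2 was the highest of the 8 libraries for Trac, Ccr7, Il7r, Cd69, Egr2 and Nr4a1, and each of these calls held without it.

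**Figure D2:**
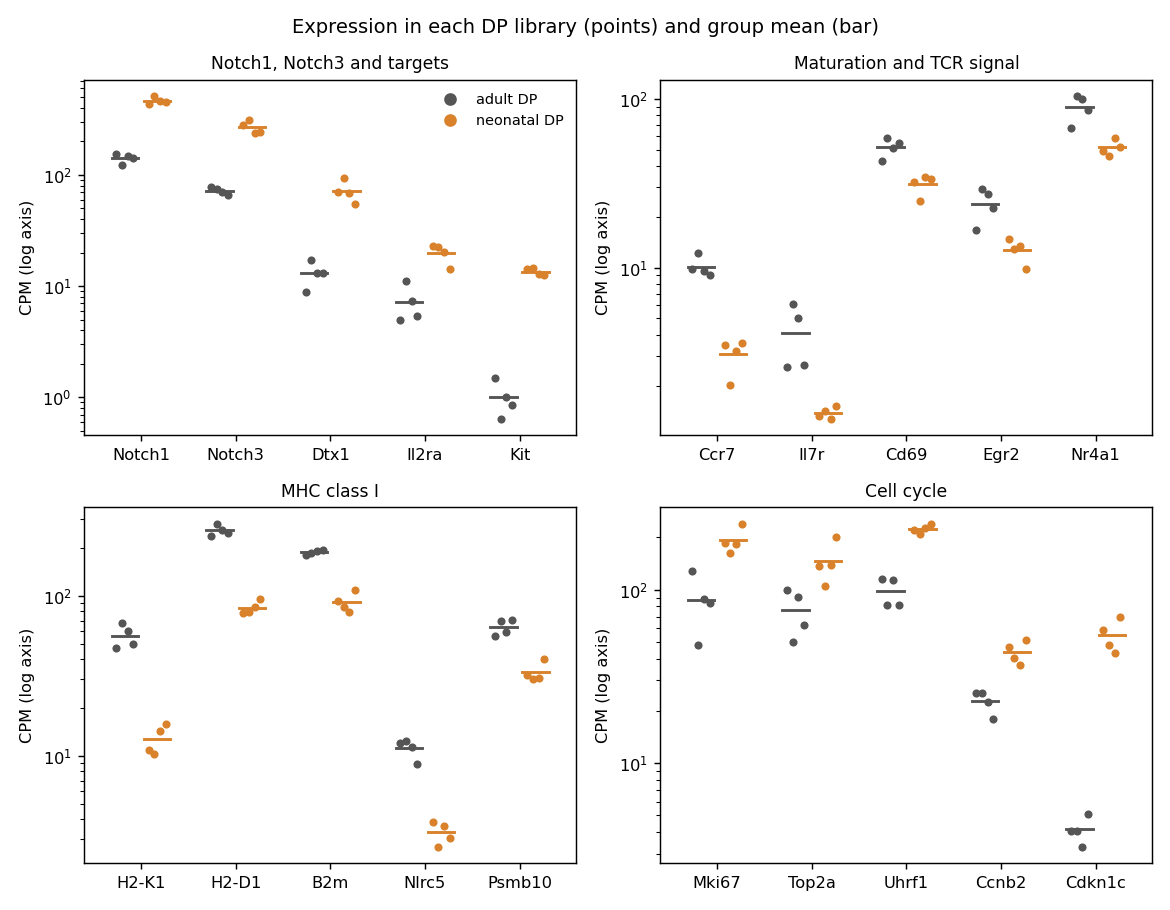
CPM (log axis) of 20 genes in each DP library, adult in grey and neonatal in orange, with a bar at the mean of the 4 libraries of an age. The ages are separated for every gene shown, with the neonatal libraries higher in the upper left panel (Notch1, Notch3, Dtx1, Il2ra, Kit) and the cell cycle panel, and lower in the other panels.

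The TNF receptor family and NF-kB genes gave 16 lower and 1 higher of 41 tested (42 listed), with a median of −0.41. Traf1, an adaptor that NF-kB induces, had 33.2, 35.8, 34.7 and 40.5 CPM in adults and 12.0, 13.7, 13.5 and 11.5 CPM in neonates (−1.51, SE 0.12, adjusted p = 1.47e-12). The NF-kB subunits Rel (−0.71, SE 0.12), Relb (−0.68, SE 0.13) and Nfkb1 (−0.43, SE 0.06) fell, as did the receptors Tnfrsf18 (GITR, −1.28, SE 0.18) and Tnfrsf14 (−0.83, SE 0.14) and the cytokine gene Tnf (−1.20, SE 0.26). Tnfrsf25, which encodes death receptor 3, went the other way. It had 1.66, 2.36, 1.84 and 0.941 CPM in adults and 34.7, 30.6, 36.8 and 34.2 CPM in neonates, 20.5-fold higher (4.36, SE 0.19, adjusted p = 1.74e-19). Among 14 immediate-early and heat shock genes 3 were called lower and 0 higher, and 1 without adult replicate 2. Fos had 11.1, 25.1, 7.30 and 6.82 CPM in adults and 1.43, 3.09, 1.21 and 1.23 CPM in neonates (−2.81, SE 0.70, adjusted p = 0.00615), and limma-voom did not call it (−2.67).

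Cell cycle genes were higher in neonatal DP cells. Of 50 genes of G1 to S and DNA replication, 33 were called higher and 1 lower, with a median of 0.48. Of 56 genes of G2 and mitosis, 42 were called higher and 2 lower, with a median of 0.83. Leaving out 1 DP library moved the higher calls between 26 and 37 and between 30 and 43. Without adult replicate 2 there were 32 and 33. Mki67, the proliferation antigen Ki-67, had 128, 48.3, 88.1 and 83.4 CPM in adults and 185, 164, 184 and 240.4 CPM in neonates (1.15, SE 0.30, adjusted p = 0.00812). Adult replicate 2 was the lowest and adult replicate 1 the highest adult library for Mki67, yet none reached the neonatal range.

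Genes of the replication phase followed. Uhrf1, which copies DNA methylation at the fork, had 115, 81.1, 114 and 81.6 CPM in adults and 219.7, 209, 226 and 238 CPM in neonates (1.19, SE 0.12, adjusted p = 4.65e-09). E2f1, an activator of S phase genes, rose from 13.98 ± 2.26 to 26.1 ± 3.57 CPM (0.90, SE 0.13, adjusted p = 3.49e-06). Its family member E2f7, a repressor, rose by 1.31 (SE 0.28), the checkpoint adaptor Clspn by 1.16 (SE 0.19) and Rrm2, which makes DNA precursors, by 0.99 (SE 0.20). Among mitotic genes, Ccnb2 (cyclin B2) went from 22.9 ± 3.51 to 43.8 ± 6.47 CPM (0.94, SE 0.15, adjusted p = 1.09e-05), the kinase Nek2 rose by 1.17 (SE 0.16) and the transcription factor Foxm1 by 0.90 (SE 0.23). Smc4, a condensin subunit, fell (719 ± 40.1 against 526 ± 27.2 CPM, −0.45, SE 0.09, adjusted p = 1.59e-04).

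Of 20 tested cyclin D, CDK and CDK inhibitor genes (23 listed), 3 were called higher and 4 lower. Ccnd3, the D cyclin that DP precursors need to divide, rose from 1345 ± 69.9 to 1863 ± 36.2 CPM (0.47, SE 0.08, adjusted p = 1.23e-05). Cdkn1c, the imprinted gene of the CDK inhibitor p57, rose alongside the cell cycle genes. It had 4.08, 4.08, 3.30 and 5.13 CPM in adults and 58.4, 47.9, 43.3 and 69.9 CPM in neonates, 13.1-fold higher (3.71, SE 0.18, adjusted p = 3.51e-18).

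The promoters of mitotic genes are known for a short element, the cell cycle genes homology region (CHR), through which a repressor complex silences them in resting cells. Promoter sequences (RefSeq, GRCm38.p6) covered 300 bases, from 250 before to 50 after the start, and were found for 10812 of the tested genes with a symbol. The letters TTTGAA on either strand were in 24 of 34 G2 and mitosis genes called higher (70.59%) and in 32 of all 46 with a promoter (69.57%), against 14.79% of tested genes. Among G1 to S genes called higher they were in 3 of 27 (11.11%). The E2F motif GGCGGGAA was in 7 of these 27 (25.93%), against 4.59% of tested genes. These matches describe letters, not bound sites, and a short motif such as TTTGAA is common. The 100 bases before the start are shown for 3 mitotic genes that rose. The CHR letters are in capitals and lie 30, 18 and 23 bases before the start. These genes were picked with a match in the stretch shown, so the distances are not a result about mitotic genes. Ncapg encodes a condensin subunit (5:45669825-45669924, plus strand), Cdc20 an activator of the anaphase-promoting complex (4:118437344-118437443, minus strand) and Top2a a DNA topoisomerase (11:99024190-99024289, minus strand, where the match is on the other strand).
Ncapg: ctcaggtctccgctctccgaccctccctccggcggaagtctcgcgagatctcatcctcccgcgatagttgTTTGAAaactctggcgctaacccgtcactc
Cdc20: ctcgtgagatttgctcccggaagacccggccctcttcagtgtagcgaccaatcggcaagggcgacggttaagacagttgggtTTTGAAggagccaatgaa
Top2a: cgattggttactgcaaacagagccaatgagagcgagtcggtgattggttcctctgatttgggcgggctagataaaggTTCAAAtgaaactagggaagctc

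Ncapg had 7.95, 3.64, 6.66 and 5.88 CPM in adults and 12.3, 9.86, 12.8 and 17.4 CPM in neonates (1.11, SE 0.22, adjusted p = 3.43e-04). Cdc20 went from 24.3 ± 2.24 to 41.3 ± 4.79 CPM (0.77, SE 0.15, adjusted p = 2.18e-04). Top2a had 99.6, 50.01, 91.0 and 62.8 CPM in adults and 137, 105, 138 and 202 CPM in neonates (0.94, SE 0.22, adjusted p = 0.00321). The ages did not overlap for any of the 3 genes, with adult replicate 2 lowest for Ncapg and Top2a.

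MHC class I genes, which present peptides to CD8 T cells and select them in the thymus, were lower in neonatal DP cells. Of 17 genes of class I and peptide loading, 10 were called lower and 0 higher, with a median of −0.38 and a negative value for all 17. H2-K1, a classical class I heavy chain (17:33996017-34000347, minus strand, GRCm38), had 47.3, 67.4, 60.0 and 49.9 CPM in adults and 10.8, 10.3, 14.2 and 15.7 CPM in neonates, 4.399-fold lower (−2.14, SE 0.13, adjusted p = 6.36e-15). H2-D1, the other classical heavy chain, had 236, 283, 259 and 247 CPM in adults and 77.7, 79.0, 85.2 and 95.8 CPM in neonates (−1.60, SE 0.10, adjusted p = 5.17e-15). Class I heavy chains form a family of similar genes, so how reads were divided among them is uncertain. B2m, the shared light chain, had 181, 185, 189 and 193 CPM in adults and 92.3, 84.9, 79.1 and 109 CPM in neonates (−1.03, SE 0.10, adjusted p = 1.34e-09).

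Nlrc5, the transactivator of class I genes, fell by 3.36-fold, from 12.0, 12.4, 11.3 and 8.89 CPM to 3.87, 2.698, 3.64 and 3.04 CPM (−1.75, SE 0.14, adjusted p = 8.52e-12). The immunoproteasome subunit Psmb10 (63.7 ± 7.13 against 33.4 ± 4.84 CPM, −0.93, SE 0.11) and the loading chaperone Tapbp (−0.58, SE 0.10) fell as well. Tap1, a subunit of the peptide pump, had 148 ± 11.5 and 133 ± 9.62 CPM and was not called (−0.16, SE 0.08, adjusted p = 0.16).

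Interferon target genes were lower in step. Of 64 tested, 34 were called lower and 0 higher, against 8.74% and 8.98% over all genes, with a median of −0.66 (−0.65 with genes at the floor placed at their bound). The lower calls ranged from 31 to 36 when 1 DP library was left out. Among 25 genes of the receptors and signal, 7 were called lower and 0 higher (4 lower without neonatal replicate 1), with a median of −0.16. The receptor genes themselves were not called. Ifnar1 had 156 ± 5.64 and 152 ± 7.85 CPM (−0.04, SE 0.06, adjusted p = 0.701) and Ifngr1 482 ± 45.3 and 520.0 ± 21.7 CPM (0.11, SE 0.08, adjusted p = 0.428). Irf1, the transcription factor that carries the interferon gamma signal to class I genes, had 33.8, 43.3, 45.04 and 39.6 CPM in adults and 24.4, 21.5, 22.7 and 24.2 CPM in neonates (−0.80, SE 0.09, adjusted p = 1.01e-08).

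Among the targets, the immunity-related GTPase Igtp had 104, 132, 127 and 124 CPM in adults and 69.0, 63.0, 59.3 and 69.6 CPM in neonates (−0.90, SE 0.08, adjusted p = 6.56e-11). Its relative Irgm2 went from 21.6 ± 2.72 to 11.3 ± 0.665 CPM (−0.94, SE 0.12, adjusted p = 3.81e-07). Bst2, the antiviral protein tetherin, had 33.1 ± 1.36 and 20.9 ± 3.80 CPM (−0.67, SE 0.11, adjusted p = 1.61e-05). The guanylate-binding protein Gbp2 (−1.13, SE 0.12), the nucleic acid sensor Zbp1 (−1.10, SE 0.11), Samd9l (−1.13, SE 0.11) and Xaf1 (−1.75, SE 0.19) fell further. The surface protein Ly6e, the most counted of the named targets, fell from 864 ± 124 to 546 ± 47.8 CPM (−0.66, SE 0.10, adjusted p = 3.50e-06). Epsti1, a gene outside the list that interferon is known to induce, fell from 152 ± 14.9 to 67.8 ± 12.7 CPM (−1.17, SE 0.11, adjusted p = 3.84e-10).

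Interferon acts on such genes through the interferon-stimulated response element (ISRE), whose core was searched on either strand as the letters GAAA, any 2 bases, and GAAA again. It was in 16 of 28 interferon targets called lower (57.14%) and in 27 of all 48 targets with a promoter (56.25%), against 3.89% of tested genes. Among class I genes called lower it was in 3 of 9 (33.33%), and in 3 of all 14 class I genes with a promoter (21.43%). The share among targets that fell was thus close to that among all targets. The stretches below show the element, in capitals, in front of 4 genes that fell: 100 bases for Igtp (11:58199456-58199555, plus strand) and Irgm2 (11:58214877-58214976, plus strand), 150 bases for Bst2 (8:71537473-71537622, minus strand) and B2m (2:122147537-122147686, plus strand). These 4 genes were picked with a match in the stretch shown, so its place is not a result about interferon targets. In Bst2, 2 overlapping matches stand 124 and 130 bases before the start. Igtp and Irgm2 are not independent examples. Their promoters share 68 of 70 bases when lined up on the element, and their annotated spans overlap by 7974 bases on the same strand, so reads in shared stretches cannot be assigned to 1 of them even with strand known.
Igtp: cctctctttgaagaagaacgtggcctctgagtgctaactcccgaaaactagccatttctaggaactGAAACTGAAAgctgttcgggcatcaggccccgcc
Irgm2: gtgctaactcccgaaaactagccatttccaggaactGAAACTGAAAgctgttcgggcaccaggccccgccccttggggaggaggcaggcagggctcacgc
Bst2: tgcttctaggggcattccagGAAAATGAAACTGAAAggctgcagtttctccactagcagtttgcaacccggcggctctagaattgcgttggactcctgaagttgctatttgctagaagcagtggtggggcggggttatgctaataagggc
B2m: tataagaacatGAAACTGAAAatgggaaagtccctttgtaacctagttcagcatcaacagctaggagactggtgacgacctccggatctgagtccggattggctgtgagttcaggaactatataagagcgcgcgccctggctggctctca

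**Figure D3:**
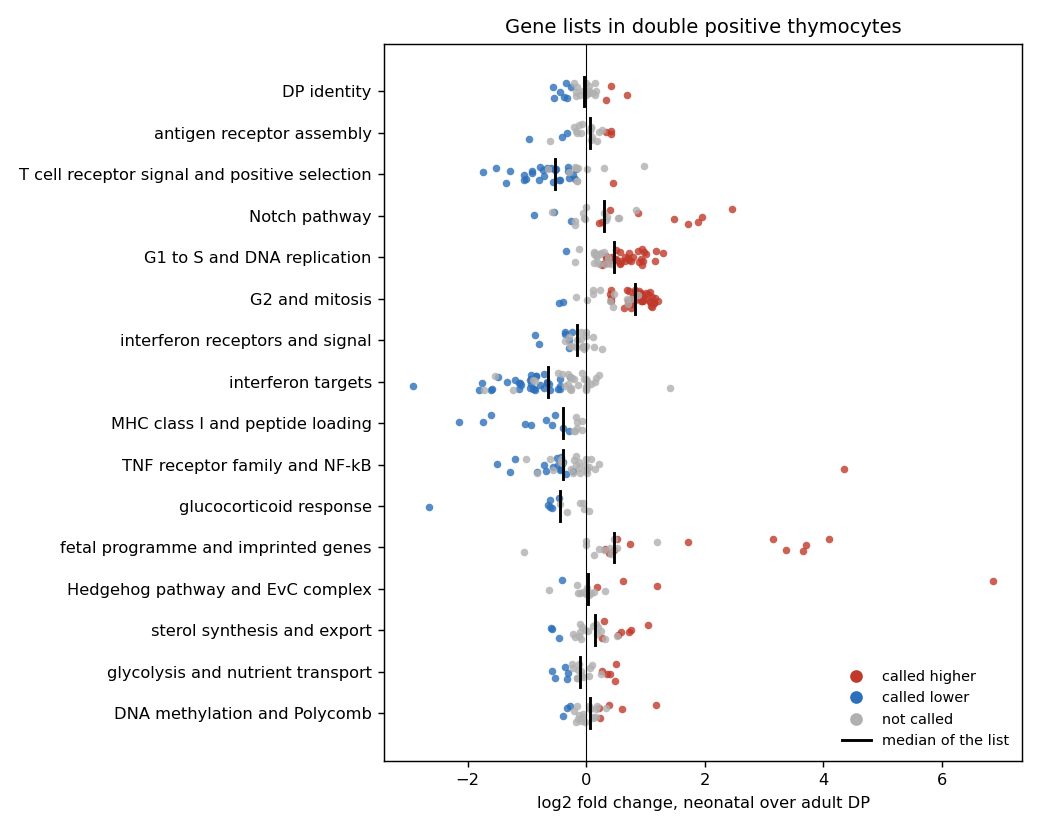
Log2 fold change of neonatal over adult DP for each tested gene of 16 lists (points, red called higher, blue called lower, grey not called) and the median of each list (black bar). Genes at the floor in 1 age are drawn at their bound. Interferon targets, class I, receptor signal and NF-kB genes lie mostly left of 0, and both cell cycle lists lie to the right, with the G2 and mitosis median at 0.83.

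Genes of the fetal programme and imprinted genes were called in 1 direction. Of 30 listed, 22 were tested, and 11 were called higher and 0 lower, against 8.98% and 8.74% over all genes. The median was 0.64 (0.47 with genes at the floor placed at their bound). The list was chosen with earlier results of these data known, so its count of rises is not independent of them. Igf2bp3, an RNA-binding protein of fetal cells downstream of Lin28b (6:49085223-49214957, minus strand, GRCm38), had 3.53, 4.59, 3.11 and 2.49 CPM in adults and 62.8, 56.99, 60.9 and 52.5 CPM in neonates, 17.2-fold higher (4.10, SE 0.16, adjusted p = 6.22e-21). Plag1, a zinc finger activator of growth genes, went from 3.09 ± 0.818 to 27.8 ± 2.10 CPM (3.15, SE 0.23, adjusted p = 2.35e-13). The phosphatase gene Ptpn14 had 92.4, 84.8, 96.0 and 107 CPM in adults and 306, 328, 304 and 317 CPM in neonates (1.72, SE 0.13, adjusted p = 6.26e-12). Hmga1, a chromatin protein, rose less (82.8 ± 9.78 against 139 ± 14.5 CPM, 0.75, SE 0.11). Hmga2, also listed, had no count in any DP library.

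Snrpn, an imprinted gene, had 0 counts in all adult DP libraries and 2.15, 2.94, 1.64 and 1.23 CPM in the neonatal ones, at least 10.4-fold higher than the adult floor of 3 counts per library (adjusted p = 1.31e-11). Rps4l went from 1.84 ± 0.439 to 23.0 ± 2.98 CPM (3.66, SE 0.37), a value that is uncertain because ribosomal protein genes have many near-identical copies.

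In the Hedgehog pathway and its EvC complex, 16 of 25 genes were tested, 4 were called higher and 1 lower (2 higher with the DP libraries alone), and the median was 0.03. Evc, a subunit of the ciliary EvC complex that carries the signal of Smoothened (5:37289098-37336894, minus strand, GRCm38), was almost without counts in adult DP cells. It had 0, 0, 0 and 0.0471 CPM in adults, which is 1 count in all, and 25.5, 23.2, 20.2 and 21.0 CPM in neonates, which is 1642 counts. The ratio of summed counts was 1588 with an exact conditional 95% interval of 285 to 62775 for counting error (edgeR adjusted p = 1.69e-19). Evc2, its partner, had 2 counts in adults and 32 in neonates, a ratio of 15.5 (3.95 to 133), at a mean of only 0.438 CPM in neonates.

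Crmp1, a gene on the other strand whose 3036 last bases overlap those of Evc, rose from 3.52 ± 0.270 to 44.3 ± 6.08 CPM (3.65, SE 0.17, adjusted p = 5.77e-19). Since the use of strand in counting was not given in the sources used here, reads in the shared stretch cannot be assigned to 1 of them. The coreceptor Cdon rose (20.3 ± 2.76 against 31.3 ± 2.36 CPM, 0.63, SE 0.10) and the kinase Grk2 fell (−0.40, SE 0.07). Smo had 125 ± 6.81 and 133 ± 5.71 CPM (0.08, SE 0.12, adjusted p = 0.721). The receptor and target gene Ptch1 (−0.13, SE 0.08, adjusted p = 0.325) and the inhibitor Sufu (0.13, SE 0.08, adjusted p = 0.27) were not called either. Shh, Boc and Gli3 had no count in any DP library.

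Glucocorticoids, which the thymus makes and which kill DP cells at high dose, act through the receptor Nr3c1. Of 12 genes of this response 6 were called lower and 0 higher, with a median of −0.45. Nr3c1 itself had 199, 172, 198 and 205 CPM in adults and 132, 119.9, 121 and 132 CPM in neonates (−0.62, SE 0.09, adjusted p = 9.72e-07). Hsd11b1, which regenerates the active hormone inside cells, had 52.9, 52.2, 53.9 and 54.9 CPM in adults and 33.9, 38.1, 33.6 and 31.4 CPM in neonates (−0.64, SE 0.10, adjusted p = 1.02e-05). The target genes Tsc22d3 (GILZ, −0.45, SE 0.10), Sgk1 (−0.61, SE 0.12) and Klf9 (1.25 ± 0.409 against 0.192 ± 0.102 CPM, −2.65, SE 0.51) fell. The target Fkbp5 was not called, at 205 ± 13.6 and 192 ± 15.5 CPM (−0.09, SE 0.09, adjusted p = 0.535).

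Of 26 genes of sterol synthesis and export, 7 were called higher and 3 lower. The synthesis enzymes Sqle (0.77, SE 0.18), Cyp51 (0.72, SE 0.15) and Lss (0.54, SE 0.12) rose. The 3 that fell were the cholesterol exporters Abca1 (73.2 ± 8.42 against 48.8 ± 6.13 CPM, −0.59, SE 0.15) and Abcg1 (216 ± 9.61 against 146 ± 6.49 CPM, −0.57, SE 0.07) and Mylip (−0.45, SE 0.10), which encodes a ubiquitin ligase.

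Other lists moved little or in both directions. Glycolysis and nutrient transport gave 5 higher and 5 lower of 24 (2 to 3 lower in 4 of the fits without 1 DP library), amino acid and one-carbon metabolism 4 and 4 of 19 tested, and DNA methylation and Polycomb 5 and 3 of 26, with medians of −0.10, −0.15 and 0.06. Without adult replicate 2 the last of these had 2 higher calls. Innate-like and effector genes gave 4 higher and 6 lower of 38 (3 lower without neonatal replicate 1), 17 of them at the floor. Sox13, a factor of gamma-delta lineage cells (0.588 ± 0.217 against 2.21 ± 0.621 CPM, 1.92, SE 0.30), and Maf (2.01 ± 0.266 against 5.24 ± 1.41 CPM, 1.39, SE 0.25) rose at low levels, and Il2rb, the beta chain of the interleukin 2 receptor, fell (1.03 ± 0.252 against 0.186 ± 0.276 CPM, −2.45, SE 0.45). Of 8 regulators linked to age, 1 was called higher and 2 lower, the latter being Dntt and the zinc finger factor Zbtb20 (104 ± 20.7 against 60.9 ± 7.92 CPM, −0.77, SE 0.21, adjusted p = 0.0115).

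Several of the largest changes were in genes outside these lists. Tmie, known as a part of the hair cell channel of the inner ear (9:110865711-110880113, minus strand, GRCm38), had 24.6, 26.2, 33.4 and 31.4 CPM in adults and 1.07, 0.883, 1.00 and 0.527 CPM in neonates, 32.8-fold lower (−5.04, SE 0.21, adjusted p = 1.69e-19). On the opposite strand and overlapping Tmie by 244 bases, Als2cl had 233, 194, 261 and 245 CPM in adults and 22.1, 25.2, 29.4 and 23.7 CPM in neonates (−3.21, SE 0.14, adjusted p = 5.19e-19). Reads in the overlap cannot be assigned to 1 gene without knowing the strand. The antisense gene Foxd2os (23.4-fold, uncertain without strand), Vmn2r97 (18.1-fold), the growth factor genes Fgf13 (9.90-fold) and Nrg2 (8.20-fold), the cytochrome P450 gene Cyp4f16 (7.59-fold), Tanc1 (6.29-fold) and the orphan receptor gene Gprc5b (5.00-fold) completed the largest falls.

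Among abundant genes that fell, Pdk1, a kinase that keeps pyruvate out of the mitochondria, had 326, 388, 321 and 406 CPM in adults and 128, 119.6, 132 and 131 CPM in neonates (−1.50, SE 0.08, adjusted p = 2.60e-16). Faah, which breaks down endocannabinoids, fell from 72.3 ± 3.64 to 17.2 ± 1.71 CPM (−2.07, SE 0.10, adjusted p = 1.67e-18). The amino acid transporter Slc6a19 (2.56-fold), Ly6d (2.05-fold) and Pura (2.09-fold) were lower with no overlap of the ages.

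Rises among abundant genes included Hspg2, the matrix protein perlecan, with 24.9, 18.9, 18.9 and 23.4 CPM in adults and 124, 167, 151 and 141 CPM in neonates (2.76, SE 0.20, adjusted p = 6.32e-12). Apoe, a lipid carrier, rose from 40.0 ± 9.04 to 152 ± 14.1 CPM (1.93, SE 0.17, adjusted p = 2.35e-10). The linker histone gene H1f0 rose 4.28-fold (98.0 ± 38.4 against 419 ± 65.1 CPM), Baiap3 3.46-fold and the calcium channel gene Cacna1e 3.07-fold. Further rises were found for Cpsf4l (10.0-fold), Rtkn (9.89-fold), Cdc42bpa (9.03-fold) and the adhesion molecule Ncam1 (9.02-fold).

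The age difference of DP cells was set against the mean age difference of DN, SP8 and CD8 cells in 1 contrast. It differed for 3885 genes (23.6%), 1946 (11.8%) more positive and 1939 (11.8%) more negative in DP. With total-count scaling 65.5% of the calls were more positive, against 50.1% here. Notch pathway genes were more positive in DP, 9 of 25 tested with 0 more negative. In both cell cycle lists, 12 of 50 and 13 of 56 genes were more negative in DP and 0 more positive. Mki67, at 1.15 in DP, had age differences of 0.50, 1.00 and 3.77 in DN, SP8 and CD8, and Ccnb2, at 0.94 in DP, had 0.58, 1.16 and 3.91, so for these genes CD8 cells raised the mean of the other stages. The contrast of DP with DN or SP8 alone was not tested. Of 64 interferon targets 16 were more positive in DP and 4 more negative, and of 25 receptor and signal genes 10 and 0, while 8 of 17 class I genes were more negative and 1 more positive. Glycolysis genes were more negative in DP for 15 of 24, with 1 more positive.

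In DN cells Notch1 had 895 ± 115 CPM in adults (SD, n = 3) and 986 ± 104 CPM in neonates (n = 4), followed by 362 ± 58.7 and 465 ± 39.2 CPM in SP8, and 336 ± 49.96 and 206 ± 23.6 CPM in CD8. Adult DP cells, at 142 CPM, thus had the lowest Notch1 level of the 8 groups, and neonatal DP cells, at 467 CPM, stood close to neonatal SP8. The age difference was 1.79 larger in DP than elsewhere (adjusted p = 1.75e-12). Kit had age differences of −0.36 (DN), −0.26 (SP8), 1.68 (CD8, 1.49 against 4.73 CPM) and 3.74 (DP), with a contrast of 3.39 (adjusted p = 1.03e-15). Dtx1 was lower in neonates in SP8 (228 ± 47.6 against 114 ± 3.11 CPM) and in CD8 (641 ± 104 against 308 ± 23.7 CPM) while it rose in DP (contrast 3.04, adjusted p = 2.27e-11).

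Spib was highest in DN, at 34.7 ± 11.7 and 23.5 ± 1.89 CPM, and its age difference in DP exceeded the mean of the other stages by 5.50 (adjusted p = 1.63e-11), although it also rose in SP8 from 0.607 to 5.06 CPM (3.04). In CD8 it stayed under 1 CPM. Tnfrsf25 had age differences of 0.26, 0.62 and 1.02 in DN, SP8 and CD8 and of 4.36 in DP (contrast 3.73, adjusted p = 1.60e-15). Baiap3 (contrast 2.55) and Ahnak (contrast 2.92) rose in DP and differed from the mean of the other stages as well. Ahnak went from 3.32 ± 1.10 to 15.7 ± 1.86 CPM in DP and from 177 ± 59.2 to 38.6 ± 2.41 CPM in DN. Abca1 was lower in neonates at all 4 stages but least so in DP, and its log2 fold changes for DN, SP8 and CD8 were −3.596, −5.66 and −2.37 (contrast 3.29, adjusted p = 1.38e-14).

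On the negative side, Gzma, which encodes granzyme A, was higher in neonates at the other 3 stages (0.53 in DN, 0.97 in SP8, 2.58 in CD8) and lower in DP, at 19.6 ± 2.10 and 14.4 ± 1.56 CPM (contrast −1.80, adjusted p = 1.86e-08). The call in DP itself (−0.44, SE 0.16, adjusted p = 0.0451) was lost in 7 alternative fits, among them those without adult replicate 2 (−0.39), adult replicate 4 (−0.41) and neonatal replicates 1, 2 and 3 (−0.47, −0.41 and −0.39). Id3 (contrast −1.39), Ikzf2 (−1.34), Pdcd1 (−1.17) and Ccr7 (−1.16), all lower in neonatal DP, differed in the same direction. In neonatal CD8 cells Id3 was higher (44.8 against 166 CPM), and Ikzf2 rose there from 14.02 ± 3.77 to 61.2 ± 12.2 CPM. Ccdc162 fell by 1.51 in DP, with values of 0.02, −0.30 and 0.52 in DN, SP8 and CD8 (contrast −1.59). Tle6 (−1.47) rested on levels of at most 1.39 CPM at the other stages, and Arsi (−2.64) on none in adult CD8. Their contrasts therefore rest on few counts there and depend on the prior count of the fit. Tmie had a contrast of −1.58 that rests on DN, where it was at 0.27 and 0.09 CPM, while its values of −5.03 (SP8) and −3.95 (CD8) were also large falls. Wscd1 rose in DP from 11.1 ± 1.47 to 40.0 ± 4.67 CPM but by more at the other stages (−1.44). Igf2bp3 rose by 4.97, 5.66 and 5.13 in DN, SP8 and CD8, more than in DP (contrast −1.15, adjusted p = 4.31e-05).

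**Figure D4:**
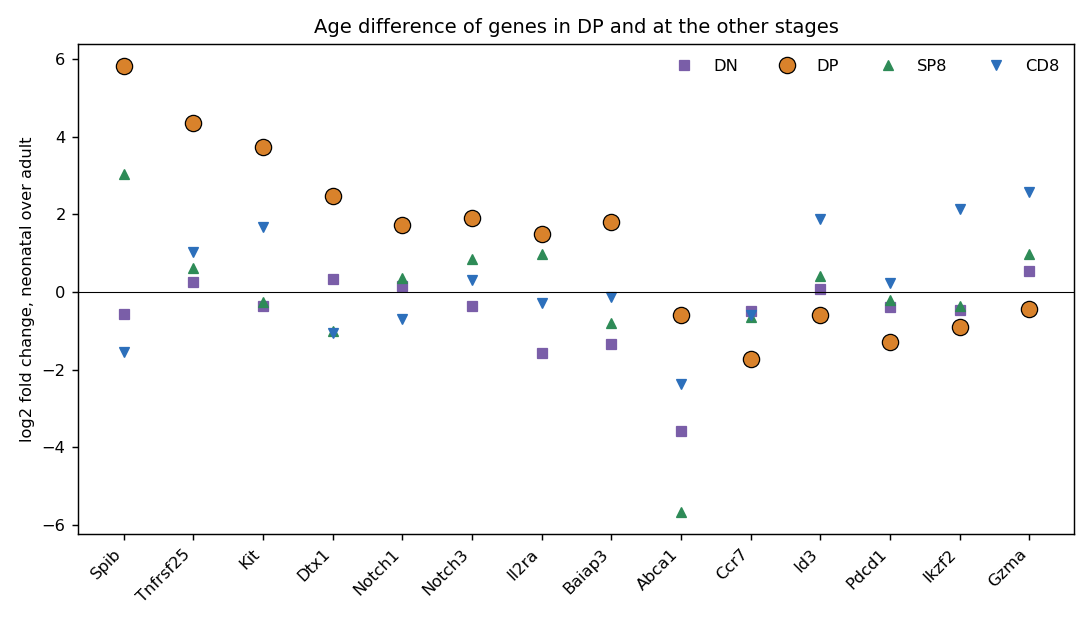
Log2 fold change of neonatal over adult cells for 14 genes (horizontal axis) in DN (squares), DP (large circles), SP8 (upward triangles) and CD8 (downward triangles). From Spib to Abca1 the DP value lies above the mean of the other stages, and from Ccr7 to Gzma below it. Spib, Notch3 and Il2ra had means under 1 CPM in CD8 at both ages, so their CD8 values rest on few counts.

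The V segments of the receptor alpha chain (Trav) were examined after their values had been seen. Alpha chain genes rearrange first with the V segments nearest to Trac and reach farther ones in later rounds, as DP cells live on. The 108 segments annotated on chromosome 14 were split by distance from Trac (14:54220521-54224206, plus strand, GRCm38) into 3 groups of 36. The 36 farthest, 1212 to 1792 kb away, took 12.1%, 12.6%, 12.9% and 11.8% of all Trav counts in the adult libraries and 5.43%, 5.92%, 5.88% and 5.01% in the neonatal ones. The means were 12.4% ± 0.52 and 5.56% ± 0.43 (SD, n = 4), and the ages did not overlap. The middle 36 took 22.6% ± 2.60 and 15.6% ± 1.40, and the nearest 36, 243 to 777 kb away, 65.0% ± 2.71 and 78.8% ± 1.58. These shares carry no test, since the split was made after the values were known.

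Single segments were low, and 63 of 108 passed the filter, of which 13 were called lower and 0 higher. By distance, 5 of 15 far, 7 of 15 middle and 1 of 33 near segments tested were called lower. The farthest, Trav1, had 3.75, 6.31, 5.20 and 5.74 CPM in adults and 0.656, 1.57, 0.844 and 0.936 CPM in neonates (−2.37, SE 0.37, adjusted p = 6.67e-06). Across the 63 tested segments, which share libraries and a locus, Spearman's rho between distance and log2 fold change was −0.885. Many segments have near-identical copies, among which the division of reads is uncertain, and without the duplicated copies the fall of the far share was 5.99 percentage points, against 6.80 with them. Of 47 tested joining segments of the alpha chain 0 were called, and of 22 V segments of the beta chain 2 were higher and 7 lower.

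**Figure D5:**
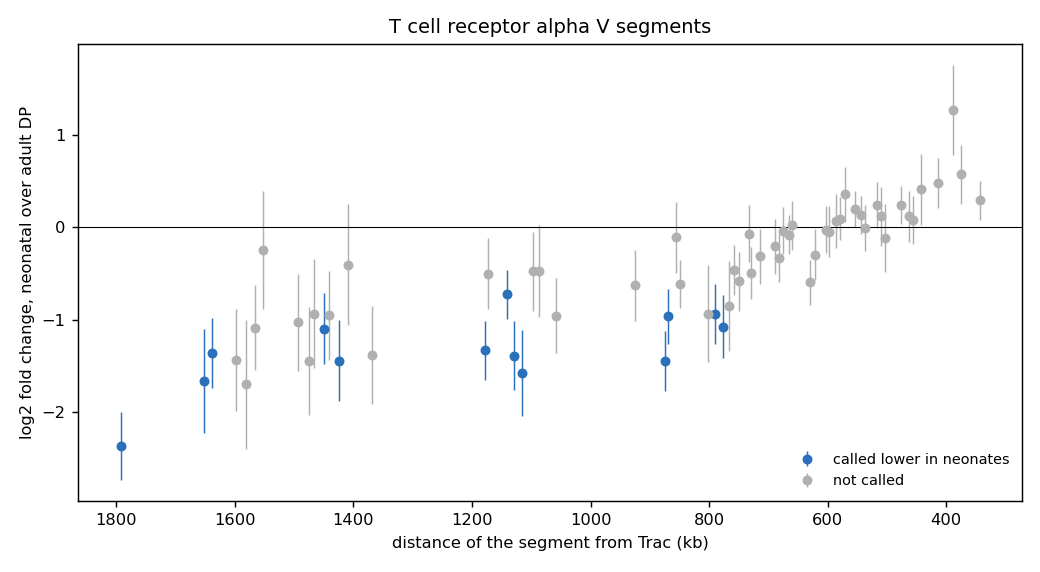
Log2 fold change of neonatal over adult DP (vertical axis, bars of 1 SE) of tested Trav segments by distance from Trac in kb (horizontal axis, far on the left). Segments called lower are blue and others grey. All 30 far and middle segments tested lie below 0, and 16 of the 33 nearest lie above it. A segment could pass the filter through the age where it was higher.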

How the data were processed

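RNA-seq of 31 thymocyte and splenic CD8 T cell libraries was used, 8 of them DP. The deposited values are whole-number counts per gene for each library. Reads were processed with Trim Galore and STAR 2.7.10a on mm10, per the submitters' processing notes. The counting tool, its use of strand and the annotation are not given in the sources used here. The authors state 4 biological replicates a group, and 1 adult DN library was not analysed here. Symbols and coordinates came from GENCODE vM21 (GRCm38), which matched 97.0% of 53700 identifiers. Promoters came from RefSeq (GRCm38.p6).

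Genes were filtered with filterByExpr (at least 10 counts, total at least 15), leaving 16461. All 31 libraries were fitted as group means with TMM scaling in edgeR 4.0.16 (R 4.3.3), whose quasi-likelihood test was adjusted by Benjamini-Hochberg and called at 0.05. Standard errors were taken from the fold change and the F statistic. CPM used TMM library sizes. Genes with at most 3 counts in every library of an age were taken at that floor. The fit kept edgeR's default prior count, and a prior count of 2 was used only for log2 CPM in the correlations between libraries.

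The members and lists were chosen with earlier results of these data known. Named genes were the 12 largest rises and falls among called genes whose ages did not overlap and whose higher age had a mean of 10 CPM or more, the 8 largest at 100 CPM or more, the 6 largest and 6 smallest values of the contrast with the other stages among genes called in it and in DP under the same 10 CPM and overlap conditions, and members of the lists. Predicted genes (Gm numbers, Rik and clone names), pseudogenes and antigen receptor segments were left out of these rankings. The lists were DP identity, antigen receptor assembly, T cell receptor signal and positive selection, Notch pathway, early thymocyte genes, G1 to S, G2 and mitosis, cyclin D and CDK inhibitors, interferon receptors, interferon targets, MHC class I, fetal and imprinted genes, Hedgehog and EvC, TNF receptors and NF-kB, innate-like genes, age regulators, glycolysis, sterol, amino acid metabolism, DNA methylation and Polycomb, glucocorticoid response, immediate-early and heat shock genes, and markers of B, erythroid, myeloid, stromal, DN, mature single positive, gamma-delta T and NK cells. Trav segments and the genes of the closing section were chosen after their values were seen.

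Alternatives were RLE size factors, total-count scaling, DESeq2 1.42.0, limma-voom (limma 3.58.1), other filters, a 2-fold change, leaving out each DP library, the DP libraries alone and replicate blocks. The fit was tested on data simulated from these libraries, with 16123 genes tested. In it 200 genes were changed in DP, all drawn from genes above a minimum mean count there. No other age difference was simulated at any stage, and changes of 2 were rises only. In DP the fit recovered 67.5% of 80, 90.0% of 80 and 97.5% of 40 genes changed by 0.5, 1 and 2 on the log2 scale. Of its calls there, 1.79% were unchanged genes. In the contrast with the other stages it recovered 50.0%, 85.0% and 95.0%, and 4.58% of the calls were unchanged genes. Recovery of genes with lower counts was not tested. Counting intervals cover counting error only.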

Additional observations from a re-analysis of the deposited data

Results flagged for a closer look

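In 294 groups of 4 DP libraries of 1 age (the values of 144 named genes and the shares of Trav counts), 25 libraries lay far from the other 3 by Dixon's criterion, which chance alone meets in about 1 in 20 groups. Adult replicate 1 was high in Abca1 (85.7 CPM against 67.6 to 70.2). Adult replicate 1 was low in Fkbp5 (185 CPM against 209 to 214) and Lat (1118 CPM against 1346 to 1364). Adult replicate 2 was high in A630023P12Rik (1.28 CPM against 0.444 to 0.565), Ccnd3 (1449 CPM against 1304 to 1318), Cd44 (8.87 CPM against 5.74 to 6.07) and Ifnar1 (164 CPM against 153 to 154). Adult replicate 2 was low in Samd9l (39.4 CPM against 62.6 to 66.9). Adult replicate 3 was high in Evc2 (0.127 CPM against 0), Tnfrsf14 (24.5 CPM against 19.9 to 20.3) and Tsc22d3 (99.6 CPM against 74.6 to 76.7). Adult replicate 3 was low in Slc6a19 (99.4 CPM against 133 to 136). Adult replicate 4 was high in Evc (0.0471 CPM against 0). Neonatal replicate 1 was high in Ifngr1 (553 CPM against 509 to 510.0). Neonatal replicate 2 was high in Fos (3.09 CPM against 1.21 to 1.43). Neonatal replicate 2 was low in Gbp2 (9.61 CPM against 11.7 to 11.9). Neonatal replicate 3 was high in Irgm2 (12.2 CPM against 10.8 to 11.04) and Sgk1 (16.5 CPM against 14.8 to 15.02). Neonatal replicate 3 was low in Rps4l (18.6 CPM against 24.3 to 24.9). Neonatal replicate 4 was high in Cyp51 (25.5 CPM against 20.4 to 21.2) and Id3 (102 CPM against 79.3 to 81.7). Neonatal replicate 4 was low in Ikzf2 (42.2 CPM against 55.9 to 56.9), Spib (9.77 CPM against 11.9 to 12.2) and Zbtb20 (49.1 CPM against 63.5 to 66.2). In adult replicate 2 the 36 nearest Trav segments took 60.9% of Trav counts.

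The age difference in DP cells was tested against the mean age difference of DN, SP8 and CD8 cells in 1 edgeR contrast. It differed at an adjusted p under 0.05 for 68 of the 144 named genes, against 23.6% of all tested genes. Some of these genes were named because they were called in this contrast, so the count is not a result about them. The values below are differences of log2 fold changes. The 32 genes with a more positive difference in DP began with A630023P12Rik (5.92), Abca1 (3.29), Abcg1 (0.91), Ahnak (2.92), Apoe (1.5), Baiap3 (2.55), Bcl2 (0.74), Cacna1e (2.61) and Ccnd3 (0.36). More positive values were also found for Cdc42bpa (1.59), Cdkn1c (2.2), Cdon (0.65), Cpsf4l (2.22), Crmp1 (1.5), Dntt (0.92), Dtx1 (3.04), Hoxb4 (1.64) and Ikzf3 (0.68). A further group held Il2ra (1.78), Kit (3.39), Mylip (0.79), Notch1 (1.79), Notch2 (0.70), Notch3 (1.64), Runx1 (0.41) and Runx3 (0.73). The last were Slc6a19 (0.72), Spib (5.50), Tap1 (0.46), Tnfrsf25 (3.73), Tsc22d3 (1.06) and Zbtb20 (1.82). The 36 genes with a more negative difference began with Als2cl (−1.13), Arsi (−2.64), Ccdc162 (−1.59), Ccnb2 (−0.95), Ccr7 (−1.16), Cd4 (−1.25), Cd8a (−0.92), Cd8b1 (−0.74) and Epsti1 (−0.96). More negative values were also found for Faah (−0.86), Fkbp5 (−0.37), Grk2 (−0.27), Gzma (−1.80), H2-D1 (−0.35), H2-K1 (−0.68), Id3 (−1.39), Igf2bp3 (−1.15) and Ikzf2 (−1.34). Next came Il2rb (−1.45), Ly6e (−0.39), Nek2 (−0.66), Nfkb1 (−0.23), Nr4a1 (−0.75), Nr4a3 (−0.62), Nrg2 (−1.20), Pdcd1 (−1.17) and Pdk1 (−0.80). The list ended with Psmb10 (−0.85), Ptpn14 (−0.57), Rag1 (−0.99), Smc4 (−0.35), Smo (−1.08), Tle6 (−1.47), Tmie (−1.58), Wscd1 (−1.44) and Xaf1 (−0.77). Cd4, Cd8a, Fkbp5, Rag1, Smo and Tap1 were not called in DP itself, so their contrasts rest largely on the other stages. In adult and neonatal CD8 cells Cd4 had only 0.254 and 0.694 CPM, and Rag1 0.757 and 2.53 CPM. Cacna1e rests in part on adult DN, at 6.96 ± 7.27 CPM.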

How the results depend on the processing

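Requiring a 2-fold change left 842 genes between neonatal and adult DP (568 higher, 274 lower) and 753 in the contrast with the other stages (583 and 170). Without 1 DP library the first comparison had 2373 to 2931 calls (1281 to 1424 higher, 1089 to 1532 lower) and the second 2997 to 4117 (1547 to 1948 more positive, 1450 to 2197 more negative). DESeq2 called 3351 and 4505 genes and limma-voom 3098 and 4164. Total-count scaling moved the median of all genes by 0.04 and 0.09 (log2), with 59.1% and 65.5% of calls positive, against 50.7% and 50.1%. Without all adult replicate 1 libraries, an alternative chosen after seeing the data, there were 2797 and 3709 calls. Replicate numbers were not shown to pair the samples, since libraries of the same number correlated in their deviations by 0.036, −0.075, 0.085 and 0.142. With a replicate block the first comparison had 3502 calls in all libraries and 2600 with the DP libraries only, against 2565 without the block, and the second had 5083. Of 144 named genes, 137 kept their side of the threshold in every alternative run. The exceptions were Cd8a, Gzma, Fos, Notch2, Rbpj, Adam10 and Nrarp, and 0 gene values reversed. Without duplicated Trav copies the far share differed by −5.99 percentage points. Depth limits all values near the floor of 3 counts a library.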

Other observations

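Genes outside the lists, chosen after their values were seen, are given here as values. A630023P12Rik, a long noncoding RNA gene (5:110514923-110525980, plus strand, GRCm38), had 0.497, 1.28, 0.444 and 0.565 CPM in adult DP cells and 83.0, 86.2, 82.9 and 76.3 CPM in neonatal ones. The neonatal libraries were nearly equal and all far above the adult ones (6.90, SE 0.19, edgeR adjusted p = 1.33e-25).

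Hox genes, which pattern the embryo and are active in blood progenitors, were low and fell. Of 7 tested, 5 were called lower and 0 higher, namely Hoxa3, Hoxa5, Hoxa6, Hoxa7 and Hoxb4. Hoxa7 had 4.58, 2.93, 1.27 and 1.41 CPM in adults and 0, 0, 0.0528 and 0.234 CPM in neonates. Hoxb4 went from 1.42 ± 0.398 to 0.283 ± 0.245 CPM (SD, n = 4; −2.32, SE 0.44, edgeR adjusted p = 1.44e-04). The linker histone gene H1fx rose together with H1f0, with 4.14, 10.1, 5.65 and 5.79 CPM in adults and 36.1, 33.1, 38.0 and 44.8 CPM in neonates (2.57, SE 0.23, edgeR adjusted p = 7.96e-10).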
